A study of Mus musculus with 12 samples.

Results

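Immediate early transcription factors are the genes a cell transcribes first after a stimulus. Here they are 10 genes chosen by symbol: Fos, Fosb, Jun and Junb of the FOS and JUN families, Egr1, Egr2 and Egr3 of the EGR family, and Ier2, Ier3 and Atf3. All 10 were among the 14398 genes of the count table, and all 10 were among the 14266 genes that passed the filter on low counts. Messenger RNA had been sequenced from sorted adipocyte precursors, the stromal cells from which new fat cells form, in 12 libraries of 4 groups with 3 libraries each. VWAT stands for perigonadal and SWAT for inguinal white fat, and the mice had been kept on a standard diet (SD, Harlan 2018S) or had been fed a high-fat diet (HFD, Research Diets D12492, 60% lard) for 3 days. All groups were made of male C57Bl6/J mice, 6 to 8 weeks old, and no group carried a transgene or deletion in its labels. The 4 groups were thus VWAT on SD, VWAT on HFD, SWAT on SD and SWAT on HFD. Each library was a pool of cells from 3 mice, so the spread between libraries is that between pools. SD samples are labelled day 0 and HFD samples day 3, and if the groups were collected on separate days, day and diet cannot be told apart.

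Immediate early genes need no new protein for their induction: factors already in the cell, such as SRF with its ternary complex partners ELK1, ELK3 and ELK4, and CREB, are activated by kinases and switch them on within minutes. FOS and JUN proteins pair as AP-1 on target genes, EGR proteins bind GC-rich sites through zinc fingers and are held back by the NAB corepressors, and ATF3 is a stress-induced member of the ATF family. The same genes are also induced when tissue is digested and cells are sorted, and the response inside the animal and the response to handling cannot be told apart in these libraries. In bulk RNA, fewer cells that express a gene and less of its RNA per cell cannot be told apart either.

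The promoters of Fos and Jun are shown because these 2 genes had the most similar pattern of all pairs among the 10. Sequences are the 250 bases before the RefSeq transcript start in GRCm38.p6, 5′ to 3′ on the strand of the gene, and capitals mark the motif matches. The Fos window lies at chr12:85473640-85473889 on the plus strand, and the Jun window at chr4:95052223-95052472 on the minus strand.
Fos: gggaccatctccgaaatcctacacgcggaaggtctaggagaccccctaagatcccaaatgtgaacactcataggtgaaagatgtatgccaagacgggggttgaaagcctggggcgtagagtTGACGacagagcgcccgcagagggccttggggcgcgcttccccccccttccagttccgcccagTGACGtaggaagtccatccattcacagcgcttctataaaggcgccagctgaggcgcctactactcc
Jun: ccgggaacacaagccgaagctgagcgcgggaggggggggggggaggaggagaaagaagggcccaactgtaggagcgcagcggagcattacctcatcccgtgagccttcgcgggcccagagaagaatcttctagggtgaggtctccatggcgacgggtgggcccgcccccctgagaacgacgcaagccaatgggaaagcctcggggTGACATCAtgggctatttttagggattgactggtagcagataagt
In Fos the capitals are 2 copies of TGACG, the first bases of the cAMP response element, which lie 129 to 125 and 66 to 62 bases before the start. In Jun they are TGACATCA, an AP-1-like element, 45 to 38 bases before the start. Egr2, which had the largest difference between depots of the 10, has several annotated starts, and 2 stretches of 30 bases around matches to the CArG box, the core of the serum response element bound by SRF, are shown from its windows. They lie at chr10:67537484-67537513 and chr10:67537787-67537816 on the plus strand, with the box in capitals.
Egr2 upstream box: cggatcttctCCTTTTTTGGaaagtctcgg
Egr2 downstream box: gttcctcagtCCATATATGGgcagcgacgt
RefSeq windows were at hand for 7 of the 10 genes (not for Egr1, Egr3 and Ier2). Both strands were searched for the CArG box, for the cAMP response element TGACGTCA and its part TGACG, and for the AP-1 site TGANTCA and its relative TGACATCA. The EGR sites searched were GCGTGGGCG and GCGGGGGCG. Of 32851 windows of the same length, 1.47% held a CArG box, 1.55% the full cAMP response element and 17.8% its part. The AP-1 site was in 6.75% and its relative in 2.93%, and the EGR sites in 0.536% and 2.57%, in the order given. The part of the cAMP response element was in a window of 5 of the 7 genes (Fos, Fosb, Junb, Egr2 and Atf3), the CArG box in 1 (Egr2), the AP-1 relative in 1 (Jun) and the second EGR site in 1 (Fosb). A match is a description of the letters and not a bound site. Sites farther upstream than these 250 bases were not searched, so a missing match says nothing about them. The 7 genes had 11 windows, with more than 1 for Egr2 only, while the shares are per window.

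The libraries held 17630284 to 56094076 gene counts, and the 10 genes took 1.52 to 2.89% of them. Levels are in CPM, gene counts relative to the total of each library after TMM scaling, and a gene rose, fell or passed where edgeR's quasi-likelihood test gave a Benjamini-Hochberg adjusted p under 0.05 over the 14266 genes. Of the sorting markers, Itgb1 (CD29) was at 486 to 812 CPM, Cd34 at 956 to 1629.9, Ly6a (Sca1) at 386 to 1190.3 and Cd24a at 1.72 to 19.6 over the 12 libraries. Ptprc, which encodes the leukocyte antigen CD45, was at 0.129 to 0.656 CPM in 11 libraries and at 6.93 CPM in SWAT HFD replicate 2. Pecam1 (CD31) was at 1.44 to 8.66 CPM and Adipoq, the fat cell marker, at 0.0645 to 0.657 CPM. VWAT HFD replicate 3 stood apart: on the second principal component it was at -2.05, beside 37.0 and 46.0 for the other VWAT HFD libraries and -32.3 to -24.4 for VWAT SD. Results that rest on either of these libraries are given with and without it.

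Levels between genes are compared per kilobase of exon (CPM per kb, with exon lengths from GENCODE vM21 on GRCm38, not the build of the counts). In VWAT on SD the order ran from Fos at 2181 ± 32.2 CPM per kb (SD, n = 3) through Junb at 2011 ± 93.9, Egr1 at 1644 ± 140 and Jun at 1261 ± 81.7. Atf3 at 682 ± 67.6, Fosb at 587 ± 37.3 and Ier2 at 426 ± 40.7 followed. Ier3 at 95.8 ± 1.96, Egr2 at 36.3 ± 3.93 and Egr3 at 4.04 ± 0.793 CPM per kb were the lowest. The EGR family thus spanned a wide range, with Egr1 among the high genes and Egr3 the lowest of the 10. In SWAT on HFD, Fos was again highest at 1991 ± 63.6 CPM per kb and Egr3 lowest at 7.16 ± 0.893.

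**Figure D1:**
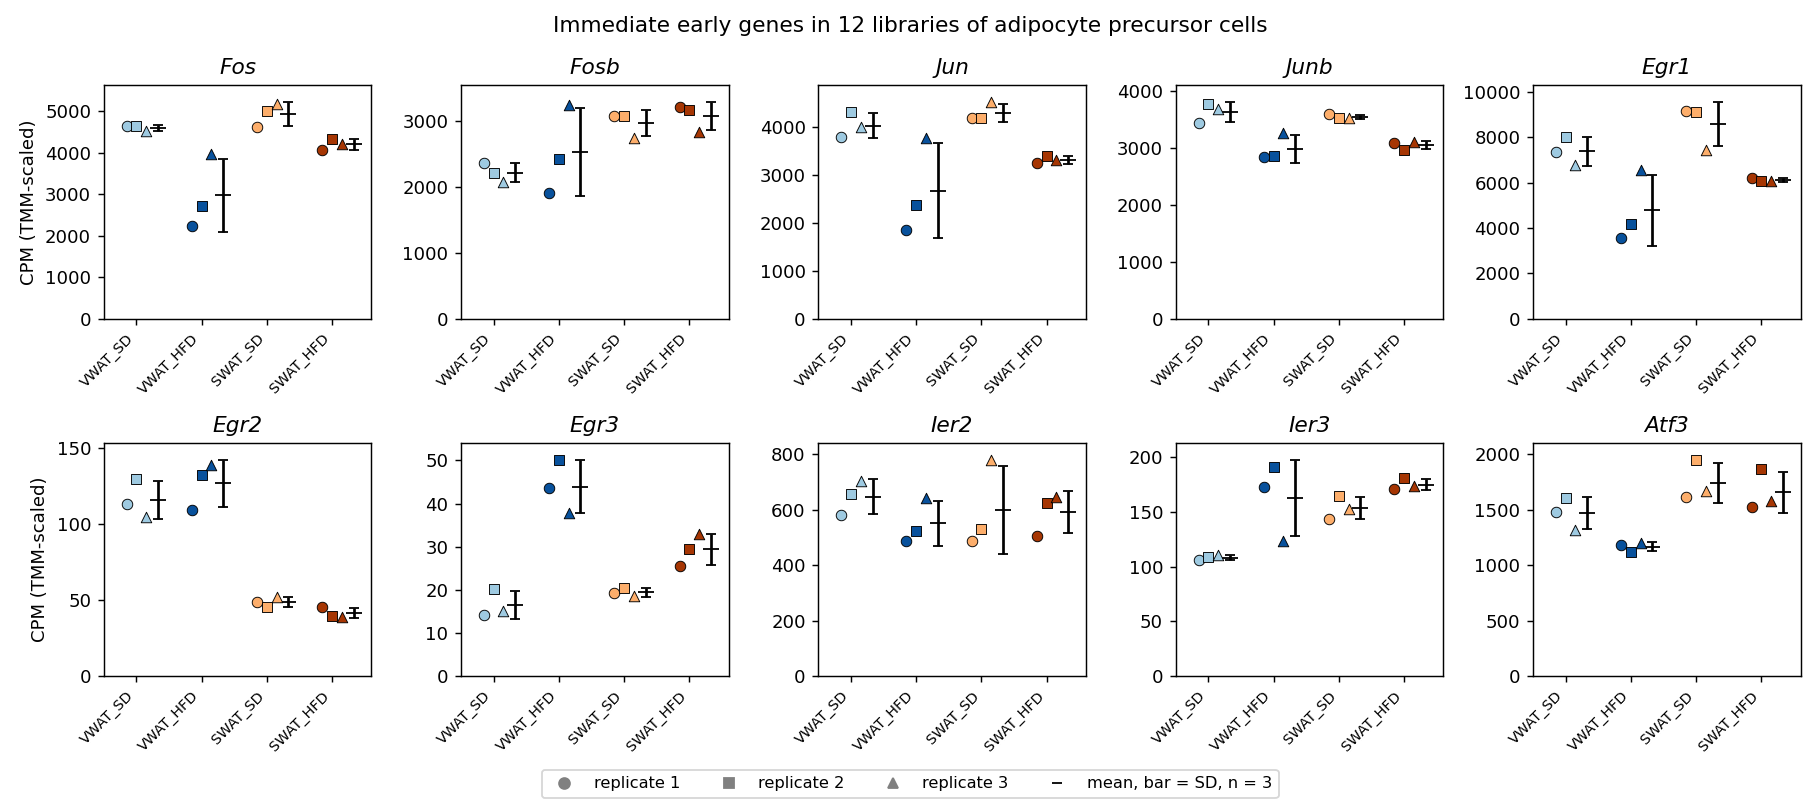
CPM (TMM-scaled) of the 10 genes in the 12 libraries, 1 panel per gene with a linear axis from 0. Circles, squares and triangles are replicates 1, 2 and 3, and the bar is the mean ± SD of 3 libraries; Fos, Jun and Egr1 are low in VWAT HFD replicates 1 and 2, Egr2 is higher in all 6 VWAT libraries than in the 6 SWAT libraries, and Egr3 is highest in VWAT on HFD.

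In VWAT precursor cells, 3 days of HFD went with higher Egr3 and Ier3 and lower Fos and Egr1, while 6 of the 10 genes did not pass the test. Egr3 was 2.65-fold and Ier3 1.5-fold higher, and Fos and Egr1 were each 1.55-fold lower. Of all genes tested, 15.6% passed in this comparison, 8.64% higher and 6.98% lower, beside 2 higher and 2 lower of the 10. The median log2 change was -0.26 over the 10 genes and -0.02 over all genes. The libraries did not overlap between diets for 7 of the 10 genes, 2 higher and 5 lower, beside 33% of all genes, 15.5% higher and 17.5% lower.

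Among the FOS and JUN genes, Fos encodes the short-lived partner that gives AP-1 much of its activity. Its level was 4629.6, 4642 and 4519 CPM in the SD libraries and 2239, 2716 and 3954 CPM in the HFD libraries. All 3 HFD libraries lay below all 3 SD libraries, with replicate 3 much nearer to them than the other 2. The log2 change was -0.63 ± 0.17 (SE) with an adjusted p of 0.0244. Jun, the main partner of FOS in AP-1, was at 3781, 4298 and 3986 CPM on SD and 1846, 2371 and 3767 CPM on HFD. It showed the same split, with HFD replicate 3 just under the lowest SD library, and its log2 change of -0.60 ± 0.20 (SE) with an adjusted p of 0.0574 did not pass in edgeR's test. Junb, a JUN protein that is a weaker activator than JUN at many sites, was at 3447, 3771 and 3698 CPM on SD and 2844, 2856 and 3272 CPM on HFD. Its libraries did not overlap either and showed a log2 change of -0.28 ± 0.10 (SE) with an adjusted p of 0.0777. Fosb, a close relative of Fos, was at 2365, 2211 and 2083 CPM on SD and 1915, 2427 and 3244 CPM on HFD. Here 1 HFD library lay below the SD libraries and 2 above them, and the log2 change was 0.19 ± 0.16 (SE) with an adjusted p of 0.453.

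Of the EGR genes, 1 fell, 1 rose and 1 did not pass. Egr1, a zinc finger activator of growth factor targets, was at 7330.4, 8021 and 6763 CPM on SD and 3567, 4183 and 6557 CPM on HFD. Each HFD library was below each SD library, replicate 3 by little, and the log2 change was -0.63 ± 0.19 (SE) with an adjusted p of 0.0415. Egr2 (Krox20), which is known to promote fat cell formation early in differentiation, was at 113, 129 and 105 CPM on SD and 109, 132 and 139 CPM on HFD. The groups overlapped, and the log2 change was 0.13 ± 0.11 (SE) with an adjusted p of 0.449, with a 95% interval of -0.11 to 0.37. Egr3 was at 14.2, 20.3 and 15.2 CPM on SD and 43.6, 50.1 and 37.9 CPM on HFD. All 3 HFD libraries were well above the SD libraries, and replicate 3 was not set apart here. Its log2 change was 1.41 ± 0.14 (SE) with an adjusted p of 0.000604, and it passed in 19 of 19 alternative analyses, with log2 changes of 1.29 to 1.58.

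Ier2, a small nuclear protein of the early response, was at 582, 656 and 705 CPM on SD and 487, 525 and 642 CPM on HFD. These groups overlapped, and the log2 change was -0.23 ± 0.17 (SE) with an adjusted p of 0.385. Ier3, a stress-induced regulator of cell survival, was at 106, 108 and 111 CPM on SD and 173, 191 and 124 CPM on HFD. The SD libraries were nearly alike, and the 3 HFD libraries were all higher, replicate 3 the least. Its log2 change was 0.59 ± 0.13 (SE) with an adjusted p of 0.00991. Atf3, a mostly repressive stress factor, was at 1481, 1609 and 1319 CPM on SD and 1185, 1117 and 1196 CPM on HFD. The 3 HFD libraries were close to each other and below the SD libraries, and the log2 change of -0.33 ± 0.12 (SE) with an adjusted p of 0.0783 did not pass.

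The calls for lower genes depended on single libraries, and the share of all genes called changed with them. Without VWAT HFD replicate 3, 2 genes rose and 4 fell, Fos by 0.89, Egr1 by 0.93, Jun by 0.93 and Junb by 0.35 on the log2 scale, while the share of all genes called went from 15.6% to 29.8% (14.9% in each direction). Without SWAT HFD replicate 2, 2 rose and 1 fell, beside 13.7% of all genes. Fos no longer passed when only the libraries compared were fitted (adjusted p = 0.0958, edgeR), nor without VWAT SD replicate 1 (0.0634), 2 (0.0690) or 3 (0.0682) or without VWAT HFD replicate 1 (0.0707) or 2 (0.115). Fewer of all genes were called in these fits too, 8.87% with only the libraries compared. The share was 9.75%, 8.86% and 6.76% without VWAT SD replicate 1, 2 and 3. It was 9.24% and 5.29% without VWAT HFD replicate 1 and 2. The log2 change of Fos in these fits was -0.46 to -0.64. Egr1 was lost in 12 of 19 alternatives, with adjusted p of up to 0.175, among them each VWAT library left out other than HFD replicate 3. It was also lost without SWAT SD replicate 1 or 2, without each SWAT HFD library, with only the libraries compared and with the replicate number as a block (adjusted p = 0.0511). Without those SWAT libraries 13.3% to 16.3% of all genes were called, and with the block 16%. Ier3 was lost only without VWAT HFD replicate 2 (adjusted p = 0.0593, log2 change 0.45). With counts scaled by library size alone, 2 genes rose and 5 fell, beside 5.6% of all genes higher, 12.8% lower and a median log2 change of -0.13 over all genes under that scaling. Jun passed as lower with counts scaled by library size alone, DESeq2, limma voom and the replicate block, and Junb and Atf3 with library size alone and DESeq2. More of all genes were called in these fits too, 19.5% with DESeq2 (8.38% lower) and 17.2% with limma voom (8.59% lower).

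**Figure D2:**
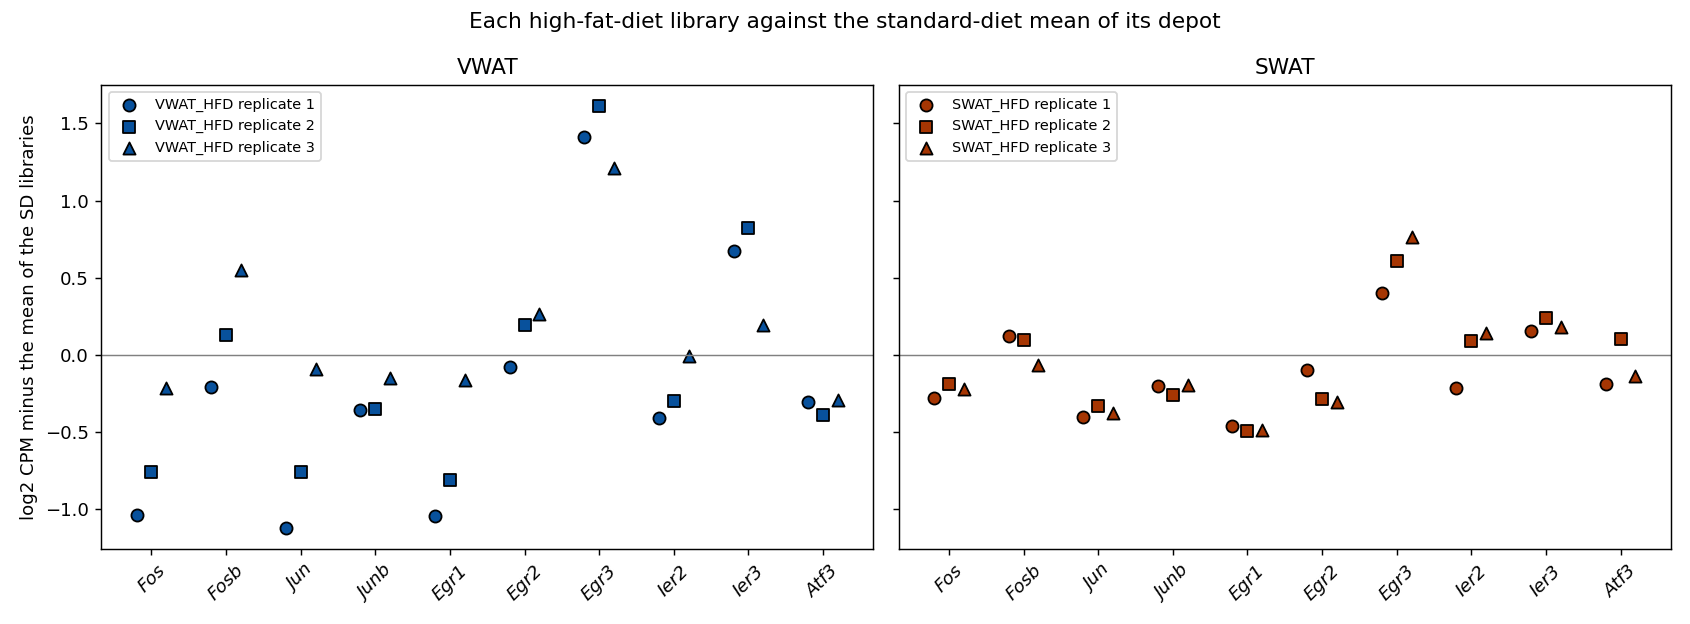
Log2 CPM of each HFD library minus the mean log2 CPM of the SD libraries of its depot, for the 10 genes, with VWAT on the left and SWAT on the right. Circles, squares and triangles are replicates 1, 2 and 3; in VWAT, replicate 3 lies near 0 for Fos, Jun and Egr1, where the other 2 libraries lie between -0.76 and -1.12, and all 3 libraries lie above 1 for Egr3 and between -0.29 and -0.39 for Atf3.

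The library that stood apart also differed in other gene sets. The summed level of 8 cell cycle genes was 19.3 to 29.8 CPM in VWAT on SD, 214 and 344 CPM in HFD replicates 1 and 2 and 88.1 CPM in replicate 3. The summed level of 13 heat shock genes, which can respond to tissue handling, was 11584 to 15034 CPM on SD, 8475 and 10408 CPM in HFD replicates 1 and 2 and 12896 CPM in replicate 3. So replicate 3 lay between the diets in cell cycle genes and within the SD range in heat shock genes, as it lay nearest to SD in Fos, Jun and Egr1. The summed level of 8 mural genes was 273 to 299 CPM on SD, 197 and 233 CPM in HFD replicates 1 and 2 and 322 CPM in replicate 3. Most of this sum was Pdgfrb, at 212 to 244 CPM on SD and 145, 171 and 275 CPM in HFD replicates 1, 2 and 3. Rgs5, another of the 8 genes, was at 1.10 to 11.6 CPM over the 12 libraries. It went the other way, at 3.36 to 6.45 CPM on SD and 11.6, 6.90 and 2.45 CPM in HFD replicates 1, 2 and 3. The mean log2 CPM of 9 endothelial genes was 1.00 to 2.25 on SD and 2.65, 2.04 and 0.42 in these replicates. For 2 erythroid genes it was 0.75 to 1.86 on SD and 1.94, 1.95 and -0.73. Replicate 3 was thus the lowest VWAT library in Rgs5 and in both of these means. Of the 8 mural genes, Cspg4 and Notch3 rose on HFD and Myh11 (23.3 to 8.73 CPM) and Abcc9 (7.14 to 4.09 CPM) fell. Of the sorting markers Itgb1 rose. Thy1, which the labels do not name for the sort, rose from 147 to 366 CPM. The summed level of 10 measured leukocyte genes was 11.8 to 19.0 CPM in VWAT on SD and 8.39 to 11.6 CPM in VWAT on HFD, with Ptprc under 1 CPM in all 6 libraries, and Cd14 fell. The part of these sets in the results for the 10 genes was not tested.

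In SWAT precursor cells none of the 10 genes passed between diets in edgeR's test. At an unadjusted p under 0.05 were 2 of them (Egr1 and Egr3), beside 2120 of the 14266 genes tested. DESeq2 called 1 of the 10 (Egr3) and limma voom 0, beside 3.64% and 0.0841% of all genes. Over all genes tested, 1.11% passed in this comparison, 0.967% higher and 0.147% lower. The median log2 change was -0.15 over the 10 genes and 0.00 over all genes. The libraries did not overlap for 6 of the 10 genes, 2 higher (Egr3 and Ier3) and 4 lower (Fos, Jun, Junb and Egr1), beside 21.8% of all genes, 11.6% higher and 10.2% lower.

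Egr3 was at 19.2, 20.4 and 18.6 CPM in SWAT on SD and 25.6, 29.6 and 32.9 CPM on HFD. Each HFD library was above each SD library, and the log2 change was 0.60 ± 0.14 (SE) with an adjusted p of 0.0670. It passed in 4 of 19 alternatives: DESeq2 (0.00699), the replicate block (0.0415), only the libraries compared (0.0177) and the fit without VWAT HFD replicate 3 (0.0229), all as adjusted p. Without that library 4.29% of all genes were called in this comparison. Egr1 was at 9145, 9123 and 7453 CPM on SD and 6203, 6063 and 6080.2 CPM on HFD. The HFD libraries were nearly alike and all lower, and the log2 change of -0.49 ± 0.19 (SE) with an adjusted p of 0.256 passed only without VWAT HFD replicate 3 (0.0298). Jun was at 4169, 4176 and 4507 CPM on SD and 3235, 3397 and 3297 CPM on HFD. The diets did not overlap and showed a log2 change of -0.37 ± 0.20 (SE) with an adjusted p of 0.406.

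Fos was at 4612, 5001 and 5168 CPM in SWAT on SD and 4055, 4321 and 4214 CPM on HFD, and Junb at 3597, 3531 and 3539 and 3092, 2974 and 3108 CPM. Both were lower in each HFD library, with log2 changes of -0.23 ± 0.17 (SE) with an adjusted p of 0.561 and -0.22 ± 0.10 (SE) with an adjusted p of 0.341. Ier3 was at 144, 164 and 152 CPM on SD and 171, 181 and 174 CPM on HFD, a log2 change of 0.19 ± 0.13 (SE) with an adjusted p of 0.531. These libraries did not overlap, while those of the other 4 genes did. Fosb was at 3076, 3086 and 2738 and 3224, 3171 and 2829 CPM, Egr2 at 48.6, 45.3 and 51.8 and 45.3, 39.8 and 39.2 CPM. Ier2 was at 486, 532 and 780.4 and 506, 625 and 646 CPM, and Atf3 at 1612, 1949 and 1668 and 1521, 1867 and 1579.6 CPM, SD first. Their log2 changes were 0.05, -0.23, -0.02 and -0.07. The highest Ier2 value of the SD group was in replicate 3, where Fos, Jun and Egr2 were also highest of that group and Egr1 and Fosb lowest. SWAT HFD replicate 2 held a summed leukocyte level of 46.9 CPM beside 12.8 to 17.3 CPM in the other 5 SWAT libraries. Without it 0 of the 10 and 0 of all genes passed. This was not particular to that library, as 0 of all genes also passed without SWAT SD replicate 1, 2 or 3. In SWAT the summed heat shock level was 15750.2 to 19378 CPM on SD and 12864 to 15857 CPM on HFD, and the summed cell cycle level 10.2 to 17.9 and 75.6 to 106 CPM. Their part in these values was not tested.

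Whether the diet effect differed between depots was tested as an interaction, and none of the 10 genes passed in edgeR's test. Of all genes tested, 0% passed. At an unadjusted p under 0.05 there were 3 (Egr2, Egr3 and Ier3), beside 1026 of all genes. DESeq2 and limma voom called 0 of the 10, beside 0.231% and 0% of all genes. Egr3 had the lowest adjusted p, at 0.470, for a difference of 0.80 ± 0.20 (SE) in log2 change, with a 95% interval of 0.37 to 1.24. For Fos the difference was -0.40 ± 0.24, with an interval of -0.91 to 0.11, and for Ier3 it was 0.40 ± 0.18, with an interval of 0.00 to 0.79. A missed threshold does not show that the depots responded alike. Without VWAT HFD replicate 3, Ier3 passed (adjusted p = 0.0440, difference 0.56), beside 0.942% of all genes.

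**Figure D3:**
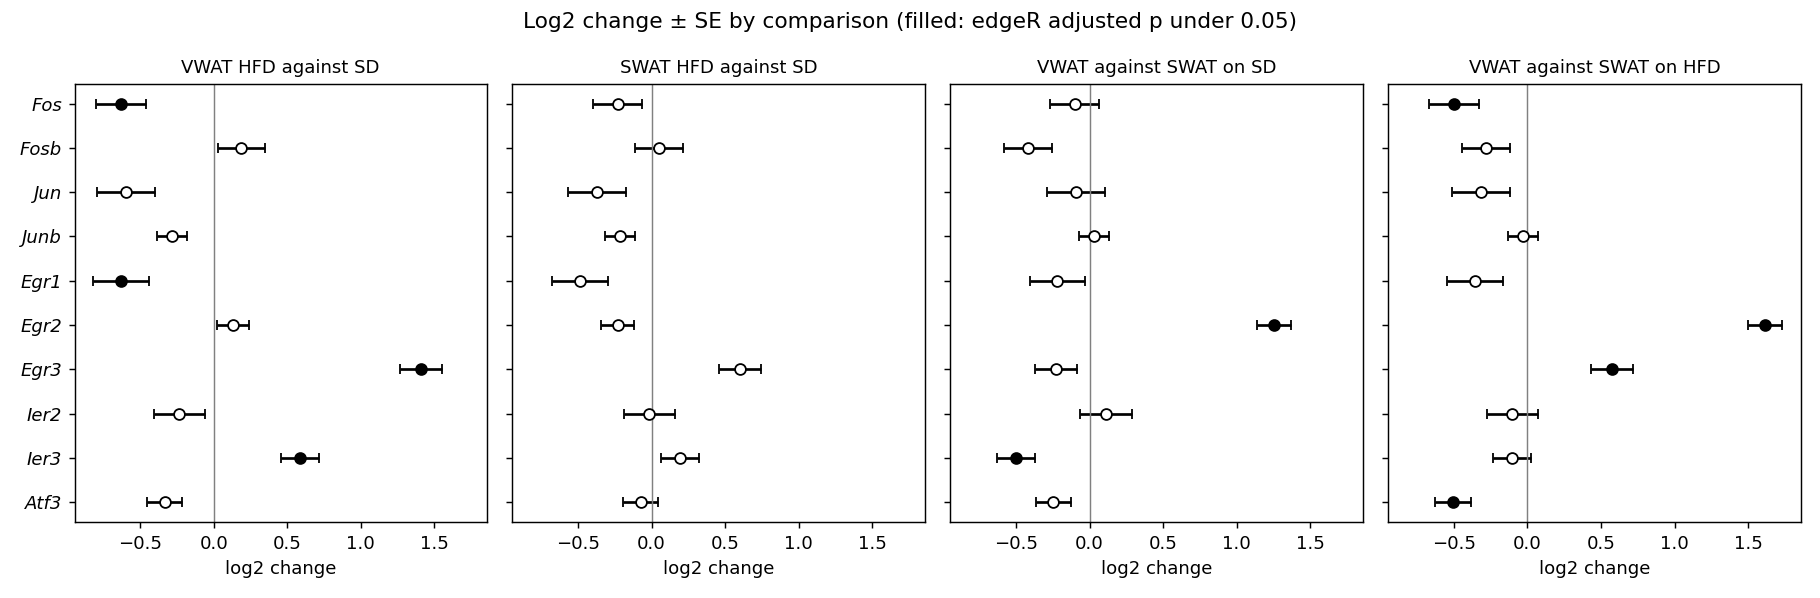
Log2 change ± SE of the 10 genes in 4 comparisons, with filled points for an edgeR adjusted p under 0.05. The diet panels compare HFD with SD in each depot, the other panels compare VWAT with SWAT on each diet, and each diet panel shares libraries with each depot panel; Egr2 stands out in both depot panels and Egr3 in the VWAT diet panel.

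Between depots on SD, Egr2 was 2.38-fold higher and Ier3 1.42-fold lower in VWAT than in SWAT, and the other 8 genes did not pass. Of all genes tested, 25.7% passed in this comparison, 13.2% higher and 12.5% lower in VWAT. The median log2 difference was -0.16 over the 10 genes and 0.02 over all genes. The depots did not overlap for 4 of the 10 genes, 1 higher (Egr2) and 3 lower (Fosb, Ier3 and Atf3), beside 45.1% of all genes, 23.6% higher and 21.4% lower. Without VWAT HFD replicate 3, 1 of the 10 was higher and 2 were lower, beside 30.8% of all genes called, and without SWAT HFD replicate 2, 1 was higher and 1 lower, beside 24.7%. The depot comparisons use the same libraries as the diet comparisons, so their values are not independent of those above.

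Egr2 was at 113, 129 and 105 CPM in VWAT and 48.6, 45.3 and 51.8 CPM in SWAT on SD. On HFD it was at 109, 132 and 139 CPM in VWAT and 45.3, 39.8 and 39.2 CPM in SWAT. Every VWAT library was above every SWAT library on both diets. The log2 difference was 1.25 ± 0.11 (SE) with an adjusted p of 2.11e-06 on SD and 1.61 ± 0.11 (SE) with an adjusted p of 2.80e-07 on HFD, and it passed in 19 of 19 alternatives on each diet, from 1.17 to 1.47 on SD and from 1.55 to 1.90 on HFD. Ier3 on SD was at 106, 108 and 111 CPM in VWAT and 144, 164 and 152 CPM in SWAT. It was lower in each VWAT library, by a log2 difference of -0.50 ± 0.13 (SE) with an adjusted p of 0.0108, and was lost with counts scaled by library size alone (-0.28, adjusted p = 0.0818). Fosb on SD was at 2365, 2211 and 2083 CPM in VWAT and 3076, 3086 and 2738 CPM in SWAT. Its libraries did not overlap, and the log2 difference of -0.42 ± 0.16 (SE) with an adjusted p of 0.0756 passed in 4 of 19 alternatives: DESeq2 (0.0252), only the libraries compared (0.00790), and without VWAT HFD replicate 1 (0.0246) or 3 (0.0112).

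On HFD, Egr2 was 3.06-fold and Egr3 1.49-fold higher in VWAT than in SWAT, and Fos and Atf3 were 1.41-fold and 1.42-fold lower. Of all genes tested, 26.8% passed here, 13.4% in each direction. The depots did not overlap for these 4 of the 10 genes, beside 36% of all genes, 17.7% higher and 18.2% lower, and the median log2 difference was -0.19 over the 10 and 0.02 over all genes. Egr3 was at 43.6, 50.1 and 37.9 CPM in VWAT and 25.6, 29.6 and 32.9 CPM in SWAT. Each VWAT library was above each SWAT library, with a log2 difference of 0.57 ± 0.14 (SE) with an adjusted p of 0.00834 that passed in 19 of 19 alternatives. Atf3 was at 1185, 1117 and 1196 CPM in VWAT and 1521, 1867 and 1579.6 CPM in SWAT. All VWAT libraries were lower, by a log2 difference of -0.51 ± 0.12 (SE) with an adjusted p of 0.00681, which was lost with library size alone (-0.22, adjusted p = 0.152).

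Fos on HFD was at 2239, 2716 and 3954 CPM in VWAT and 4055, 4321 and 4214 CPM in SWAT. VWAT replicate 3 was just under the lowest SWAT library. The log2 difference was -0.50 ± 0.17 (SE) with an adjusted p of 0.0420, and it was lost in 13 of 19 alternatives: library size alone (-0.21), only the libraries compared, and leaving out any 1 library other than VWAT HFD replicate 3. Without that replicate 2 genes were higher and 5 lower in VWAT, with log2 differences of -0.76 for Fos, -0.66 for Egr1, -0.65 for Jun and -0.50 for Fosb, and Atf3 as the fifth. In that fit 30.5% of all genes were called, 15.6% higher and 14.9% lower. Without SWAT HFD replicate 2, 2 were higher and 1 lower, beside 19.9% of all genes. With library size alone no gene of the 10 was lower in VWAT on either diet, and Egr2 on SD and Egr2 and Egr3 on HFD stayed higher; this scaling moved the median log2 difference over all genes to 0.24 on SD and 0.30 on HFD. The summed level of 5 measured mesothelial genes was 103 to 131 CPM in VWAT and 2.41 to 4.83 CPM in SWAT, nearly all of it Wt1 (up to 127.6 CPM), which visceral precursor cells also express, with Msln at most at 1.62 CPM in VWAT and at 0 in 3 SWAT libraries. Of these 5 genes, 3 were higher in VWAT on each diet (Wt1, Msln and Upk3b) and Krt19 was lower, at 0.638 against 2.71 CPM on SD and 0.497 against 3.06 CPM on HFD.

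Markers of the sort and of mural cells also differed between depots. Cd34, Ly6a and Cd24a were lower in VWAT than in SWAT on both diets. Cd24a was at 2.55 against 13.6 CPM on SD and 3.08 against 16.6 CPM on HFD, and Ly6a at 471 against 989 and 504 against 1115 CPM. Thy1, which is not among the markers of the sort, was lower on SD. Itgb1 was higher in VWAT on HFD. Of 8 mural genes, Myh11 and Acta2 were higher in VWAT on both diets, by a log2 difference of 3.10 on SD and 1.98 on HFD for Myh11. Abcc9 and Kcnj8 were lower on both diets, by a log2 difference of -3.59 and -3.77 for Abcc9, and Cspg4 was lower on SD. The summed mural level was 273 to 299 CPM in VWAT and 328 to 399 CPM in SWAT on SD, and 197 to 322 CPM and 264 to 327 CPM on HFD. Pdgfrb made most of it, at 212 to 244 and 218 to 273 CPM on SD and 145 to 275 and 198 to 224 CPM on HFD. Of the leukocyte genes, Ptprc, Cd14, Csf1r and Cd79a were lower in VWAT on HFD, where SWAT HFD replicate 2 held the high leukocyte sum given above. Ptprc was at 6.93 CPM in that library and at 0.201 and 0.499 CPM in SWAT HFD replicates 1 and 3. Cd14, by contrast, was at 4.28, 5.48 and 4.79 CPM in SWAT and 2.46, 2.01 and 1.72 CPM in VWAT on HFD. Csf1r was at 4.15, 10.7 and 4.39 CPM in SWAT and 1.74, 2.09 and 1.03 CPM in VWAT. Of 9 endothelial genes only Tek passed in VWAT against SWAT on HFD, lower at 182 against 269 CPM. The log2 difference was below 0 for 6 of the 9 and above 0 for 3. Tek was at 173 to 302 CPM over the 12 libraries, far above Pecam1 at 1.44 to 8.66 CPM. Of 8 cell cycle genes, 7 were higher in VWAT on HFD. The part of these markers in the depot differences of the 10 genes was not tested.

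Over depots and diets the order of the 4 groups was as follows for the genes with the clearest steps. Fos ran from SWAT on SD and VWAT on SD, which overlapped, to SWAT on HFD and then VWAT on HFD, each step without overlap. Egr3 ran from VWAT on HFD to SWAT on HFD to the SD groups, again without overlap until the 2 SD groups, which did overlap. Jun and Egr1 were higher in both SD groups than in both HFD groups, and overlapped within each diet. For Junb the 2 SD groups overlapped, the 2 HFD groups overlapped, and no HFD library reached an SD library. For Ier3 the libraries of VWAT on SD were below those of all other groups. For Ier2 and Fosb each neighbouring pair of groups overlapped.

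The genes also differed in how much libraries of 1 group varied. The SD of log2 CPM within groups was 0.07 for Junb, at the 4.2 percentile of all genes, and 0.27 for Jun, at the 71.8 percentile, beside a median of 0.18 over all genes. Fos at 0.21, Egr1 at 0.25 and Ier2 at 0.24 were also above that median. Egr2 at 0.14 and Atf3 at 0.13 were below it. So the 2 JUN genes held the ends of the range among the 10. For Jun, Fos and Egr1 the largest deviation from a group mean was in VWAT HFD replicate 3, at 0.57, 0.45 and 0.51 on the log2 scale. Outside VWAT on HFD, the deviations of Jun ran from -0.09 to 0.10. The spread was not taken without that replicate.

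For each gene the 3 nearest patterns over the 12 libraries were taken as the smallest root mean square (RMS) difference in log2 CPM after centring. Nearness is a description: the points share libraries, depth and scaling. Fos and Jun were nearest to each other, with an RMS difference of 0.0899, and after Jun the nearest to Fos were Hs1bp3 and Ezh1. Jun was also near Hspa1b, a heat shock gene with a near-identical copy that makes its count uncertain, and Mapk1ip1. Egr1 was nearest to Ppap2b, Atp10d and Ezh1, at 0.0931 for the first, and its distance to Jun was 0.124 and to Fos 0.142. Junb was nearest to Crtc2, Top3b and Supt5h, with 0.0330 for Crtc2, which encodes a coactivator of CREB. Egr2 was nearest to Cdk8, Gpm6b and Plekhh2, at 0.0998 for Cdk8. Cdca7 and Mcm2, both known from DNA replication and the cell cycle, were among the 3 nearest to Egr3, with RMS differences of 0.207 and 0.215. Fosb was nearest to Asap1, Ptprm and Fam160b1, Ier2 to Asb6, Zbtb8a and Dph1 and Atf3 to Myd88, Pygl and Dusp1. Arf4 and Entpd6 were among the 3 nearest to Ier3.

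Other genes of the early response were described from 5 lists: the other AP-1 and ATF factors (12 measured), other early genes (22), feedback inhibitors of MAP kinases, EGR factors and early messages (20), kinases and factors upstream (20) and heat shock genes (13). The counts of these lists stand beside 15.6% of all genes called between diets in VWAT, 8.64% higher and 6.98% lower, and a median of -0.02. In VWAT on HFD, 3 AP-1 and ATF genes rose and 0 fell, with a median log2 change of 0.13. Fosl1, a FOS relative induced later than Fos, was at 4.76, 8.08 and 5.98 CPM on SD and 14.8, 16.7 and 12.0 CPM on HFD, a log2 change of 1.21 ± 0.24 (SE) with an adjusted p of 0.00521. Jdp2, which can repress AP-1, was at 54.4, 52.3 and 48.7 and 100.4, 98.0 and 69.9 CPM and showed a log2 change of 0.79 ± 0.12 (SE) with an adjusted p of 0.00175. Both rose in each HFD library, so the rise of these relatives stood beside a fall of Fos. Atf4, the factor of the integrated stress response, rose by 0.35 (adjusted p = 0.0348), a call lost in 8 alternatives, among them each VWAT library left out other than HFD replicate 3 (up to 0.138). In those fits with 1 VWAT library left out, 5.29% to 9.75% of all genes were called.

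Of the 22 other early genes, 7 rose and 2 fell in VWAT on HFD, with a median of 0.28. Nr4a2 and Nr4a3, orphan nuclear receptors of the early response, went from 29.9 ± 6.37 to 106 ± 42.6 CPM (SD, n = 3) and from 244 ± 37.1 to 567 ± 155 CPM. Their log2 changes were 1.83 and 1.21, with edgeR adjusted p of 0.000958 and 0.00392. Ier5, related to Ier2, was at 186, 231 and 187 CPM on SD and rose to 372, 359 and 267 CPM on HFD (log2 change 0.72, adjusted p = 0.00444). Gadd45g, a growth arrest and stress gene, fell from 388 ± 38.0 to 253 ± 15.2 CPM, by 0.62 on the log2 scale (adjusted p = 0.00275). These 4 kept their calls in every alternative run. Among the rest, Egr4, Klf4, Gadd45b and Trib1 also rose and Nfil3 fell. Without VWAT HFD replicate 2, where 5.29% of all genes were called, these calls were lost other than for Gadd45b (0.0516 to 0.163). Those of Egr4 and Nfil3 were also lost without VWAT SD replicate 1, of Egr4 and Klf4 without replicate 3 and of Nfil3 without replicate 2. Nfil3 was lost without SWAT HFD replicate 2 as well, and Trib1 and Nfil3 without VWAT HFD replicate 1. With only the libraries compared, where 8.87% of all genes were called, Egr4, Klf4, Trib1 and Nfil3 were lost (0.0515 to 0.0822). Egr4, the remaining EGR gene, was at 2.35, 5.90 and 3.47 CPM on SD and 6.15, 13.4 and 7.79 CPM on HFD.

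Of the 20 feedback genes, 2 rose and 2 fell in VWAT on HFD, near the share over all genes, with a median of 0.16. Spry1, an inhibitor of growth factor signalling, rose by 0.74 (adjusted p = 0.0141) and Dusp5, a nuclear ERK phosphatase, by 0.50 (0.0164). Errfi1, an inhibitor of the EGF receptor, fell from 1876 ± 137 to 1363 ± 48.2 CPM (adjusted p = 0.0227), and Dusp1, a phosphatase of JNK and p38 that is itself an early gene, from 1797 ± 82.6 to 1437 ± 57.9 CPM (0.0476). Leaving out VWAT HFD replicate 2 ended each of these 4 calls, with adjusted p of 0.0529 to 0.137, and those of Errfi1 and Dusp1 were also lost with only the libraries compared. Leaving out VWAT SD replicate 1 ended those of Dusp5, Errfi1 and Dusp1, replicate 2 those of Spry1, Errfi1 and Dusp1, and replicate 3 those of Dusp5 and Dusp1. VWAT HFD replicate 1 ended those of Dusp5, Errfi1 and Dusp1. Dusp1 was also lost without SWAT SD replicate 1 or 2 and without SWAT HFD replicate 1 or 2. The share of all genes called was 5.29% without VWAT HFD replicate 2 and 9.24% without replicate 1, from 15.6% with all libraries. It was 6.76% to 9.75% without 1 VWAT SD library and 8.87% with only the libraries compared.

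Of the 20 upstream genes, 2 rose and 2 fell in VWAT on HFD, again near the share over all genes, with a median of 0.09. Crem, a CREB relative, rose from 17.8 ± 3.04 to 28.1 ± 2.22 CPM (log2 change 0.66, adjusted p = 0.00802) and passed in every alternative run. Mapk8, which encodes JNK1, rose by 0.27 (0.0494), while Mapk3, which encodes ERK1, fell by 0.31 (0.0184) and Map2k7, a JNK kinase, by 0.33 (0.0224). These 3 calls were lost without VWAT HFD replicate 2 (0.132, 0.101 and 0.117), without VWAT SD replicate 3 and with only the libraries compared. In these fits 5.29%, 6.76% and 8.87% of all genes were called. Mapk8 and Map2k7 were also lost without VWAT SD replicate 1 or VWAT HFD replicate 1, and Mapk8 without VWAT SD replicate 2, SWAT SD replicate 1 or 2 or SWAT HFD replicate 2 or 3. Of the 13 heat shock genes, with a median of -0.18, 0 rose and 1 fell, beside 8.64% and 6.98% of all genes. The 1 that fell was Dnajb1, a partner of HSP70. It was at 2217, 3106 and 2930.0 CPM on SD and 1232, 1569 and 2273 CPM on HFD, groups that overlapped and showed a log2 change of -0.70 ± 0.21 (SE) with an adjusted p of 0.0413. Its call was lost without VWAT SD replicate 2 or 3, VWAT HFD replicate 1 or 2, SWAT SD replicate 1 or 2 or SWAT HFD replicate 1 or 2 (up to 0.160). In those fits 5.29% to 13.9% of all genes were called. Dnajb1 was also lost with only the libraries compared (0.0992), beside 8.87% of all genes. With library size alone 3 heat shock genes fell, and 1 upstream gene rose and 3 fell with a median of -0.02. Without VWAT HFD replicate 3, where 29.8% of all genes were called, 5 of the 13 fell, and the AP-1 and ATF list held 3 higher and 2 lower genes and the feedback list 2 higher and 4 lower.

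In SWAT on HFD, 1 gene of the 5 lists passed in edgeR's test: Klf10, a TGF-beta-induced early gene, at 61.7, 49.5 and 61.0 CPM on SD and 81.9, 85.4 and 82.5 CPM on HFD. Its libraries did not overlap and showed a log2 change of 0.54 ± 0.11 (SE) with an adjusted p of 0.0333. The call was lost without each of the 6 SWAT libraries in turn (0.0588 to 0.165), without VWAT SD replicate 1, with library size alone and with limma voom. Without SWAT SD replicate 1, 2 or 3 or SWAT HFD replicate 2, 0% of all genes passed, so those losses were not particular to Klf10. The share was 0.349% and 0.684% without SWAT HFD replicate 1 and 3, and 0.461% without VWAT SD replicate 1. In the AP-1 and ATF, feedback, upstream and heat shock lists 0 passed, with 2, 4, 3 and 4 at an unadjusted p under 0.05 and 0 called by DESeq2 or limma voom. Of the 22 other early genes, 6 were at an unadjusted p under 0.05 (Gadd45g, Ier5, Klf10, Klf4, Nfil3 and Trib1), DESeq2 called 4 and limma voom 0. Over all genes 1.11% passed, and 2120 of 14266 were at an unadjusted p under 0.05. DESeq2 called 3.64% of all genes and limma voom 0.0841%. List medians were -0.10, 0.19, 0.05, 0.06 and -0.19 in the order of the lists above. Without VWAT HFD replicate 3 the other early genes held 4 higher and 1 lower and the AP-1 and ATF genes 1 higher, beside 4.29% of all genes. Without SWAT HFD replicate 2 no list gene and 0% of all genes passed. With library size alone 2 other early genes and 1 upstream gene fell and 0 rose, beside 1.14% of all genes lower and 0.708% higher. In the interaction 0 list genes passed, with 9 at an unadjusted p under 0.05, beside 1026 of all genes. DESeq2 and limma voom called 0 list genes, beside 0.231% and 0% of all genes. Without VWAT HFD replicate 3, 1 AP-1 or ATF gene and 1 other early gene passed, beside 0.942% of all genes.

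**Figure D4:**
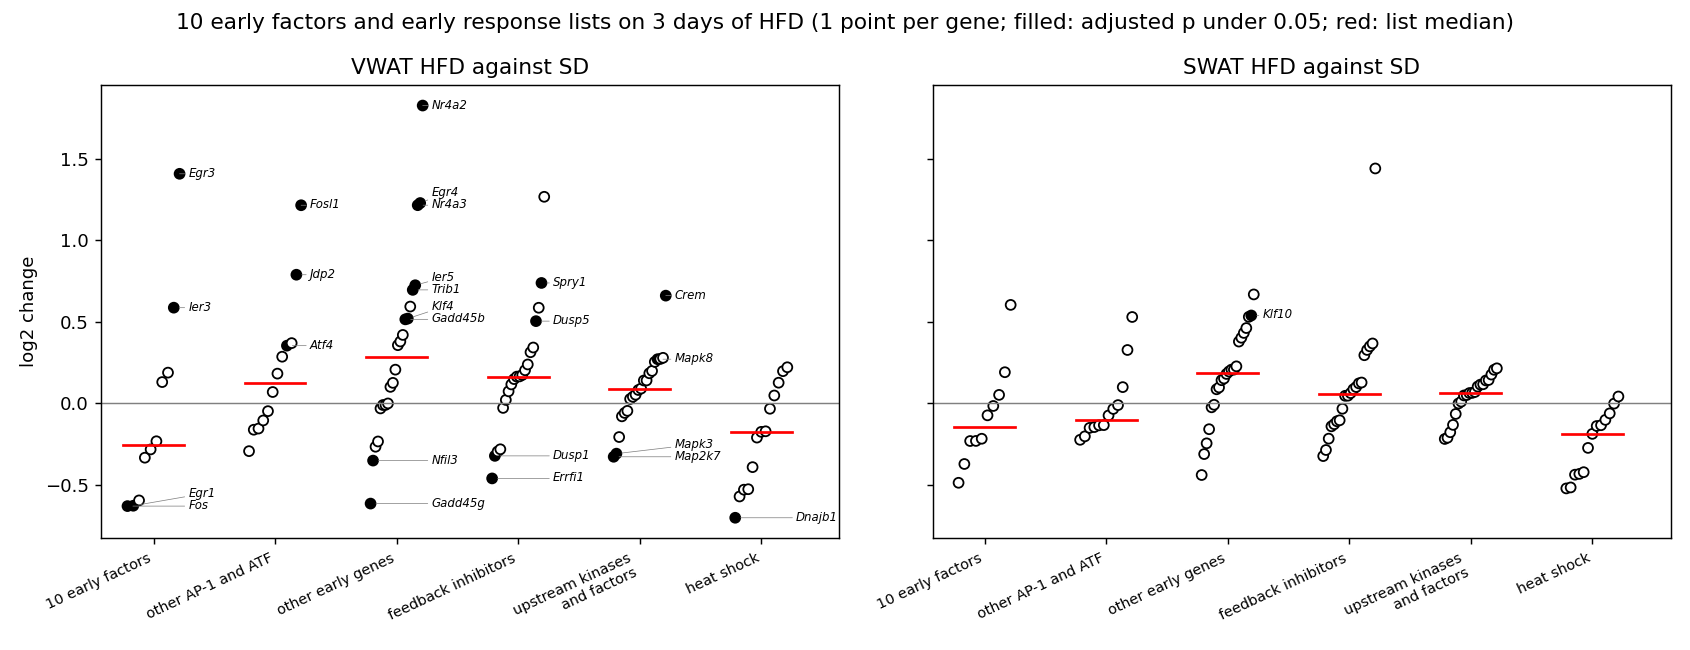
Log2 change on HFD against SD of the 10 genes and of the 5 early response lists, in VWAT (left) and SWAT (right). Each point is 1 gene, filled points have an edgeR adjusted p under 0.05 and are named, and red lines are list medians; Egr3 and Nr4a2 are the highest named points in VWAT, and Klf10 is the 1 named gene in SWAT.

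The depot counts of the lists stand beside 25.7% of all genes called on SD, 13.2% higher and 12.5% lower in VWAT. On HFD it was 26.8%, with 13.4% in each direction. Between depots on SD, the AP-1 and ATF list held 0 genes higher and 4 lower in VWAT: Jdp2 (-0.76, adjusted p = 0.000440), Jund (-0.68, 0.00151), Fosl1 (-0.87, 0.0148) and Atf4 (-0.31, 0.0426). On HFD, Jund was lower (-0.75, 0.000702) and Fosl2 (0.54, 0.0207) and Maff (0.48, 0.0421) higher. Jund, the JUN gene expressed most evenly across conditions in many cells, thus was lower in VWAT on both diets. Of the other early genes, 9 were higher and 6 lower on SD, led by Sgk1 (0.91, 3.51e-05), Phlda1 (-0.88, 0.000262), Ier5 (-0.79, 0.000700) and Gadd45g (-0.61, 0.000712). On HFD 9 were higher and 7 lower, led by Egr4 (2.96, 7.01e-05), Nr4a2 (1.90, 7.50e-05), Gadd45g (-0.78, 8.66e-05) and Gadd45b (0.73, 0.000102). Egr4 was at 6.15, 13.4 and 7.79 CPM in VWAT and 1.27, 0.743 and 1.48 CPM in SWAT on HFD, so it stood on the same side as Egr2 and Egr3.

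Of the feedback genes, 5 were higher and 3 lower in VWAT on SD and 7 higher and 3 lower on HFD. Dusp6, the ERK phosphatase, led both, at 52.4 ± 1.62 CPM in VWAT and 15.9 ± 0.986 CPM in SWAT on SD (1.72, adjusted p = 8.24e-06) and 42.7 ± 14.8 and 14.3 ± 0.742 CPM on HFD (1.57, 2.20e-05). Spry4 (0.64 and 1.10) and Spred2 (0.50 and 0.70), inhibitors of the same pathway, were higher on both diets, Spry1 was among the highest on HFD (1.33), and Dusp8, a JNK phosphatase, was lower on SD (-0.73). Of the 20 upstream genes, 3 were higher and 1 lower on SD and 6 and 1 on HFD. The shares over all genes were 13.2% and 12.5% on SD and 13.4% in each direction on HFD. Elk3, a ternary complex factor, was 1.93-fold and 2.12-fold higher in VWAT, Mapk3 1.35-fold and 1.27-fold, and Mkl2, a cofactor of SRF, was 1.51-fold and 1.61-fold lower. Mapk9 on SD (0.23) and Crem on HFD (0.73) were also higher. Of the 13 heat shock genes, 4 were lower and 0 higher on each diet, beside 12.5% of all genes lower on SD and 13.4% on HFD. The log2 difference was below 0 for 12 of the 13 on SD and for all 13 on HFD, with medians of -0.43 and -0.37. VWAT libraries lay below SWAT libraries without overlap for 8 and 5 of the 13, beside 21.4% and 18.2% of all genes. The genes that passed were Hsp90ab1 (-0.54), Dnaja1 (-0.50), Hspa8 (-0.42) and Hspe1 (-0.53) on SD and Hspa8 (-0.53), Hsp90aa1 (-0.66), Hsp90ab1 (-0.43) and Dnajb1 (-0.63) on HFD. With library size alone, the split of higher and lower genes was 1 and 3 on SD and 3 and 1 on HFD for AP-1 and ATF genes, and 8 and 1 on SD and 10 and 0 on HFD for feedback genes. It was 10 and 0 on SD and 12 and 0 on HFD for upstream genes, and 0 and 0 on both diets for heat shock genes. Under that scaling 30% of all genes were higher and 7.84% lower on SD, and 40.9% and 7.88% on HFD. Without VWAT HFD replicate 3, 6 of the 13 heat shock genes were lower on SD and 8 on HFD, beside 15.1% and 14.9% of all genes.

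Some of these depot calls rested on single libraries. With 1 library left out, 20% to 30.8% of all genes were called on SD and 19.9% to 30.5% on HFD. On SD, Atf4 and Mapk9 were lost without any 1 of the 6 SD libraries, and Mapk9 also without VWAT HFD replicate 2 or SWAT HFD replicate 1 or 2 (adjusted p of up to 0.125). Atf4 was also lost without VWAT HFD replicate 2 and with the replicate block (0.0633). Fosl1 was lost without VWAT SD replicate 1 or 3 or SWAT SD replicate 2, and Mkl2 without VWAT SD replicate 3 or SWAT SD replicate 1 or 2. Dnaja1, Hspa8 and Hspe1 were lost without VWAT SD replicate 1 or SWAT SD replicate 2, Hspa8 and Hspe1 also without SWAT SD replicate 3, Hspa8 without VWAT SD replicate 3 and Hspe1 without VWAT SD replicate 2. On HFD, Fosl2 was lost without VWAT HFD replicate 2 or SWAT HFD replicate 2 or 3, Maff without VWAT SD replicate 3, VWAT HFD replicate 1 or 2 or SWAT HFD replicate 1 or 2, and Hsp90ab1 without SWAT HFD replicate 3. Dnajb1 was lost without VWAT HFD replicate 1 or 2, any SWAT HFD library, VWAT SD replicate 2 or 3 or SWAT SD replicate 2 (up to 0.145). With only the libraries compared, Hspe1 was lost on SD (0.0678) and Hsp90ab1 (0.0593) and Dnajb1 (0.0992) on HFD. In that setting 30.1% of all genes were called on SD and 19.9% on HFD.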

How the data were processed

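RNA-seq libraries from 12 pools of sorted precursor cells (CD45-, CD31-, CD29+, CD34+, Sca1+, CD24- and CD24+, per the labels) were read as single 75 bp reads. The authors deposited raw counts per gene, made with TopHat and HTSeq on mm9, per the submitters' processing notes. Versions and the strand setting of the counting are not given in the sources used here, so overlapping and antisense genes, and near-identical copies such as Hspa1a and Hspa1b, are uncertain. The 3 entries that name no gene (3.53 to 5.57% for no feature, 1.71 to 1.95% ambiguous and 14.98 to 20.81% not unique, relative to gene counts and these entries together) were left out.

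Counts were filtered with filterByExpr (132 genes removed), scaled by TMM and fitted over all 12 libraries with edgeR 4.0.16 (robust quasi-likelihood, R 4.3.3), with 5 contrasts and Benjamini-Hochberg adjustment over the genes that were kept. Log2 CPM values used a prior count of 2. The depth of 17630284 to 56094076 counts per library and the 3 pools per group set the precision. The 10 genes and the lists were chosen with earlier results of these data known. Named were all 10 genes, from each list up to 4 genes per comparison with the lowest adjusted p that passed, and the 3 nearest patterns per gene, of which some are not reported here; other list genes were named after their values were seen. Replicate numbers of the labels were checked as pairs: between depots on SD, correlations of the deviations from group means were 0.177, 0.178 and 0.398, and a fit with the number as a block changed no call of the 10 genes there. Alternatives were DESeq2 1.42.0 size factors and Wald test, limma 3.58.1 voom, library size alone, no filter, only the libraries compared, the replicate block and each library left out; the emphasis on VWAT HFD replicate 3 and SWAT HFD replicate 2 was chosen after seeing the data. The fit was tested on simulated data.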

Additional observations from a re-analysis of the deposited data

How the results depend on the processing

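For the 10 genes in the 5 comparisons, 862 of the values under alternatives kept their direction and their side of the threshold, 34 lost and 23 gained a call, and 21 changed sign. The number of all genes called in VWAT between diets was 2228 and became 1246 with only the libraries compared and 757 to 4266 with 1 library left out, lowest without VWAT HFD replicate 2 and highest without replicate 3. In SWAT it was 159 and became 263 with library size alone, 519 with DESeq2, 12 with limma voom, 247 with the replicate block, 352 with only the libraries compared and 0 to 615 with 1 library left out. The interaction had 0 genes called, 33 with DESeq2, 1 with the replicate block and 0 to 135 with 1 library left out, with 1026 at an unadjusted p under 0.05 in edgeR. Between depots on SD, 3669 genes were called, and 2865 to 4411 with 1 library left out. On HFD it was 3830, 6954 with library size alone and 2852 to 4366 with 1 library left out. Library size alone changed the split of higher and lower genes from 1232 and 996 to 799 and 1822 in VWAT, from 138 and 21 to 101 and 162 in SWAT, from 1880 and 1789 to 4279 and 1118 between depots on SD, and from 1918 and 1912 to 5830 and 1124 on HFD.

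The sign changes were of values that did not pass. With library size alone the log2 change was -0.13 for Fosb in SWAT and 0.0028 for Junb in the interaction. The depot difference under it was 0.12 for Fos, 0.13 for Jun and 0.000601 for Egr1 on SD, and 0.0105 for Fosb, 0.254 for Junb, 0.18 for Ier2 and 0.18 for Ier3 on HFD. With the replicate block Ier2 in SWAT was at 0.0023. With 1 library left out in turn, Fosb ran from -0.0323 (without VWAT HFD replicate 3) to 0.353 in VWAT, from -0.00329 (without SWAT SD replicate 3) to 0.108 in SWAT and from -0.0834 (without VWAT HFD replicate 3) to 0.302 in the interaction. In SWAT, Ier2 ran from -0.156 to 0.219, above 0 without SWAT SD replicate 3 or SWAT HFD replicate 1 (0.0785), and Atf3 from -0.174 to 0.0135 (without SWAT SD replicate 2). Egr1 in the interaction ran from -0.44 to 0.0308 (without VWAT HFD replicate 1). Ier2 between depots on SD ran from -0.0407 (without SWAT SD replicate 1) to 0.347. On HFD, Junb ran from -0.102 to 0.0031, above 0 without VWAT HFD replicate 1 or 2 (3.7e-05), and Ier3 from -0.237 to 0.0569 (without VWAT HFD replicate 3). The cause was not tested.

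Between diets and between depots on HFD, the correlations of libraries with the same replicate number ran from -0.0754 to 0.184. Libraries with unlike numbers were not compared, so these values cannot show whether the numbers mark pairs. The block left 2 genes higher and 2 lower in VWAT between diets, with Fos and Jun lower, and in SWAT it left 1 higher (Egr3, 0.0415 as edgeR adjusted p). With 3 pools per group, Fos between diets in VWAT passed in 13 and Egr1 in 7 of 19 alternatives.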

Other observations

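Arc, an early gene best known from neurons, was at 77.3, 113 and 139 CPM in VWAT and 249.97, 245 and 426 CPM in SWAT on SD, and at 98.3, 104 and 226 and 247, 229.8 and 599 CPM on HFD. Replicate 3 was the highest library in each of the 4 groups, and each SWAT library was above each VWAT library. The log2 difference of VWAT against SWAT was -1.49 on SD and -1.33 on HFD, with edgeR adjusted p of 0.0157 and 0.0268. The call on SD was lost without VWAT SD replicate 1 (0.0715) or SWAT SD replicate 3 (0.0689). On HFD it was lost without VWAT HFD replicate 1 (0.0970) or 2 (0.107) or SWAT HFD replicate 3 (0.155), and with only the libraries compared (0.0651). Ier2 was also highest in replicate 3 of each group: 705, 642, 780.4 and 646 CPM in VWAT on SD, VWAT on HFD, SWAT on SD and SWAT on HFD.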
